A study of Schizosaccharomyces pombe with 6 samples.

Results

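The 10 genes described here encode the core of the DNA damage checkpoint of the fission yeast *Schizosaccharomyces pombe* and 4 proteins that read or process damaged chromosomes beside it. They were chosen by function, out of 6988 loci in the count table, at a time when fold changes of this comparison were already known, among them those of *hus1*, *mdb1* and *slx4*. For that reason the differences given for the 10 genes are a description and carry no test. By role they are the checkpoint clamp subunits *hus1* (SPAC20G4.04c), *rad9* (SPAC664.07c) and *rad1* (SPAC1952.07), the clamp loader subunit *rad17* (SPAC14C4.13), the sensor kinase *rad3* (SPBC216.05) with its partner *rad26* (SPAC9E9.08), the BRCT domain proteins *crb2* (SPBC342.05), *mdb1* (SPACUNK4.14) and *brc1* (SPBC582.05c), and the nuclease scaffold *slx4* (SPAC688.06c).

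Poly(A)+ RNA of vegetative cultures in logarithmic growth was sequenced from the parental h- wild-type strain (WT, AS478) and from an h- strain in which *siw14*, which encodes an inositol pyrophosphate pyrophosphatase, was replaced by a hygromycin resistance cassette (*siw14*∆::HygMX, AS2302). There were 3 biological replicates per genotype, all of them in YES medium, and each genotype was represented by 1 strain, so the deletion and any other difference between the strains cannot be told apart. The comparison asks how loss of the pyrophosphatase changes steady-state mRNA. In bulk cultures a change in every cell and a change in the share of cells at some cell cycle stage cannot be told apart.

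The checkpoint senses single-stranded DNA and unfinished replication and stops the cell cycle before mitosis. The Rad17 loader places the ring-shaped Rad9-Rad1-Hus1 clamp at the junction of single- and double-stranded DNA, while Rad26 brings the ATR family kinase Rad3 to the same site. Rad3 then acts through mediators, of which Crb2 passes the signal to the kinase Chk1, and phosphorylates histone H2A in the chromatin around the lesion. BRCT domains bind phosphorylated proteins, and those of Crb2, Mdb1 and Brc1 bind this histone mark. Slx4 holds the nuclease Slx1, and together they cut branched DNA.

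Each library held between 12875286 and 14583056 counts in genes. Counts are given below as normalized counts, meaning that they were scaled to a common effective library size, with TMM factors between 0.864 and 1.11. The deleted gene was read first as a check of the labels, and *siw14* had 2014, 2414 and 2377 counts in the WT libraries against 13, 12 and 14 in the *siw14*∆ libraries. Of the 6988 loci, 5774 passed the filter on low counts, all 10 genes among them, and of those 964 had a higher level in *siw14*∆ and 288 a lower one when the adjusted p was held to 0.05 (edgeR's quasi-likelihood test, Benjamini-Hochberg). The lowest count of any of the 10 genes in any library was 36. Of the calls over all loci, 77.0% were higher, a share that was 59.2% by DESeq2, 64.6% with its size factors in edgeR, 97.8% with library totals alone, which moved the median of all loci to 0.18, and 47.2% once a GC trend was removed. The 6 M cell markers, genes of h- cells, had summed levels of at least 80.6 CPM (counts scaled to a library total of 1000000) in WT and at least 130.3 CPM in *siw14*∆. Of these *mam1* had 839 to 1725 raw counts per library and *mfm2* 11 to 564. The P cell markers *map2* and *map3*, genes of the opposite mating type, were not at 0 and summed to 28.6 to 36.2 CPM in WT and 33.7 to 38.0 CPM in *siw14*∆. In every library *map3* (332 to 461 raw counts) was above the M markers *mfm1*, *mfm3*, *sxa2* and *mam2*.

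The clamp genes were all higher in *siw14*∆. Normalized counts of *hus1* were 64.7, 112 and 83.5 in WT replicates 1, 2 and 3 and 156, 197 and 185 in *siw14*∆ replicates 1, 2 and 3. The lowest *siw14*∆ library was thus above the highest WT library, and WT replicate 1 was the lowest of the 6. The mean went from 86.8 ± 23.9 to 179 ± 21.3 (SD, n = 3 per genotype). This is a log2 fold change of 1.04 (SE 0.21, 95% interval 0.57 to 1.51), or 2.06-fold. *rad9*, whose product carries the phosphorylated tail that recruits the mediator Rad4, had 90.0, 125 and 109 in WT and 171, 194 and 188 in *siw14*∆. Again the groups did not overlap, and the libraries of each genotype fell in the same order as for *hus1*. The log2 fold change of *rad9* was 0.77 (SE 0.17, interval 0.39 to 1.15). *rad1*, the remaining clamp subunit, had 138, 175 and 171 in WT and 235, 224 and 231 in *siw14*∆. Its *siw14*∆ libraries lay close together, with an SD of 5.34 around a mean of 229.8, and all of them were above WT. Its log2 fold change was 0.51 (SE 0.15, interval 0.18 to 0.84), and this interval lies below a 2-fold change.

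The clamp subunits are made as parts of 1 ring, and their mRNAs were not equal in level or in difference. Per kilobase of exon, the ratio of *hus1* to *rad9* was 0.786, 0.984 and 0.840 in the WT libraries and 0.993, 1.11 and 1.07 in the *siw14*∆ libraries. Against *rad1*, *hus1* had ratios of 0.488, 0.669 and 0.509 in WT and 0.691, 0.916 and 0.837 in *siw14*∆. A ratio taken within a library does not depend on the library's scaling, and both ratios were higher in every *siw14*∆ library than in any WT library. The ratio of *rad9* to *rad1* was also higher, at 0.605 to 0.679 in WT and 0.696 to 0.827 in *siw14*∆. The differences between genotypes were therefore ordered *hus1*, *rad9*, *rad1* in the estimates, although their intervals overlap.

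The loader gene *rad17* was also higher. Its normalized counts were 140.4, 181 and 212 in WT and 289.8, 274 and 279 in *siw14*∆. WT varied more (CV 20.1%) than *siw14*∆ (CV 2.84%), and the groups did not overlap. The log2 fold change was 0.66 (SE 0.16, interval 0.30 to 1.02). Rad17 works in a complex with the small replication factor C subunits Rfc2 to Rfc5, which it shares with the replication clamp loader. Of these *rfc4* rose, by 0.44 on the log2 scale (SE 0.12, adjusted p = 0.0329, edgeR), while *rfc2* (0.26, adjusted p = 0.0976), *rfc3* (0.25, adjusted p = 0.258) and *rfc5* (-0.13, adjusted p = 0.349) did not pass the test. Per kilobase, the ratio of *rad17* to *rfc2* was 0.112, 0.151 and 0.192 in WT and 0.213, 0.180 and 0.201 in *siw14*∆, so that the genotypes overlapped.

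The kinase and its partner gave different values. *rad3*, the longest of the 10 genes, had 1027, 1067 and 1030 normalized counts in WT and 1129, 942 and 978 in *siw14*∆. The *siw14*∆ libraries lay on both sides of WT. The log2 fold change of -0.04 (SE 0.10, interval -0.25 to 0.18) corresponds to 0.840- to 1.13-fold at the ends of its interval, and with library totals alone it was 0.14. *rad26*, the counterpart of ATRIP in humans, had 234, 376 and 366 in WT and 454, 460.0 and 413 in *siw14*∆. Its groups did not overlap, but WT replicate 1 was far below the other WT libraries, and the log2 fold change of 0.44 (SE 0.17, interval 0.06 to 0.82) was 0.27 without that library. The ratio of *rad26* to *rad3* per kilobase was 0.835, 1.29 and 1.30 in WT and 1.47, 1.79 and 1.55 in *siw14*∆. All *siw14*∆ ratios were above all WT ratios. When all loci were split into quintiles by mean abundance, that of *rad26* had a median log2 fold change of 0.40 and that of *rad3* -0.09.

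Among the BRCT genes, *mdb1* was higher in every *siw14*∆ library, and the genotypes overlapped at *crb2* and *brc1*. *mdb1*, the fission yeast counterpart of human MDC1, had 106, 146 and 115 normalized counts in WT and 250.3, 301 and 223 in *siw14*∆. The lowest *siw14*∆ library exceeded the highest WT library by 76.4 normalized counts, the widest gap among the 10 genes. Its mean went from 122 ± 21.0 to 258 ± 39.5 (SD, n = 3 each), and its log2 fold change of 1.07 (SE 0.18, interval 0.68 to 1.47), or 2.104-fold, was the highest estimate of the 10. *crb2*, the counterpart of human 53BP1, had 765, 743 and 625 in WT and 801, 767 and 739 in *siw14*∆. The lowest *siw14*∆ library was below WT replicates 1 and 2, and the log2 fold change was 0.11 (SE 0.11, interval -0.13 to 0.36). *brc1*, whose product acts at stalled replication forks, had 686, 627 and 577 in WT and 674, 614 and 557 in *siw14*∆. The groups covered nearly the same range, with a log2 fold change of -0.03 (SE 0.12, interval -0.30 to 0.23) that was 0.15 with library totals alone. Per kilobase, *mdb1* stood at 0.151, 0.213 and 0.199 of *crb2* in WT and at 0.339, 0.425 and 0.327 in *siw14*∆, while *brc1* stood at 0.857 to 0.937 of *crb2* in WT and 0.765 to 0.854 in *siw14*∆. The first ratio was higher and the second lower in every *siw14*∆ library. Over all loci, the abundance quintile of *mdb1* had a median log2 fold change of 0.40, and that of *crb2* and *brc1* 0.14.

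*slx4* had the fewest reads of the 10 genes. Its raw counts were 36, 75 and 69 in WT and 141, 159 and 108 in *siw14*∆. Scaled, these were 39.5, 77.2 and 72.0 in WT and 129.7, 145 and 109 in *siw14*∆. The groups did not overlap, and WT replicate 1 was again the lowest library. The log2 fold change was 1.02 (SE 0.25, interval 0.47 to 1.57), the widest interval among the 10, and it was 0.80 without WT replicate 1. Its nuclease partner *slx1* had 62.5, 107 and 76.2 in WT and 109, 141 and 117 in *siw14*∆, with a log2 fold change of 0.58 that did not pass the test (SE 0.23, adjusted p = 0.0834, edgeR). The ratio of *slx4* to *slx1* per kilobase was 0.776, 0.886 and 1.16 in WT and 1.47, 1.26 and 1.14 in *siw14*∆, and the genotypes overlapped.

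**Figure D1:**
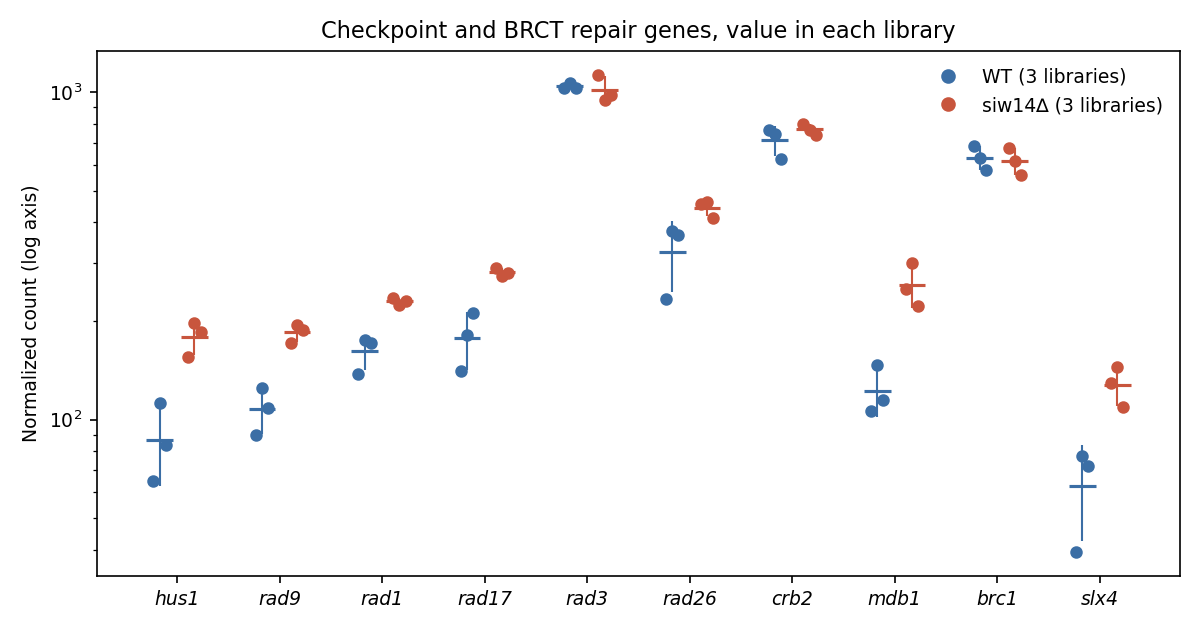
Normalized counts (log axis) of the 10 genes in each of the 6 libraries, with a point for each library, WT and *siw14*∆ side by side, and a bar at the mean of 3 libraries. The genotypes do not overlap at 7 genes and overlap at *rad3*, *crb2* and *brc1*.

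Over the 10 genes, 6 were past the adjusted p of at most 0.05 with a higher level in *siw14*∆ (*hus1*, *rad9*, *rad1*, *rad17*, *mdb1* and *slx4*), where 16.7% of all loci kept were. None was past it with a lower level, where 4.99% of all loci were. At an unadjusted p of at most 0.05 edgeR gave 7 higher and 0 lower, where 24.9% of all loci kept were higher. DESeq2 gave 6 higher and 0 lower at the adjusted threshold, where 18.7% of the 5495 loci with an adjusted p were higher. The genotypes did not overlap, with *siw14*∆ above, at 7 of the 10 genes and at 27.7% of all loci. The criteria of the study, a fold of at least 2, an adjusted p of at most 0.05 and a mean of at least 100 normalized counts in the higher strain, were met in the edgeR fit by *hus1*, *mdb1* and *slx4*, where 6 loci in all, or 0.104%, met them upward. The study took its folds and adjusted p from DESeq2, and with DESeq2 run here on the same counts the criteria were met by *hus1* and *mdb1*, where 4 loci in all, or 0.0728%, met them upward. The choice of the 10 genes used this contrast, so nothing is read from these shares. The median log2 fold change was 0.58 over the 10 genes and 0.01 over all loci kept, with a median SE of 0.17 and 0.13. Nearest the fold threshold in the edgeR fit, *slx4* lay inside it at 2.03-fold and *rad9* outside it at 1.71-fold, while the log2 fold change of *slx4* was 0.99 by DESeq2, just outside. Without *siw14*∆ replicate 1 the calls were 3, those of *hus1*, *rad9* and *mdb1*, where 6.50% of all loci were called higher. Without *siw14*∆ replicate 2 or 3 they were 0 of the 10. Of all loci 0 were then called higher and 1 lower. At an unadjusted p these fits had 6 and 7 of the 10 higher, and 19.4% and 20.1% of all loci.

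**Figure D2:**
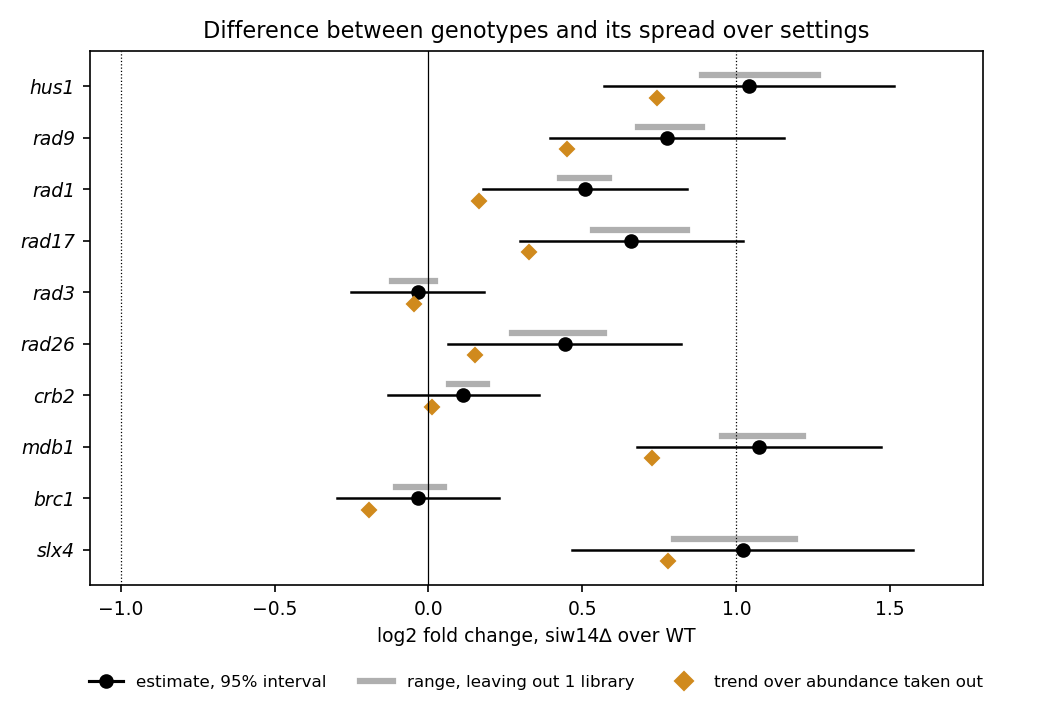
Log2 fold change of *siw14*∆ over WT for the 10 genes (point) with its 95% interval (line), the range when each of the 6 libraries is left out in turn (grey bar) and the value after a trend over abundance is taken out (diamond). Dotted lines mark a 2-fold change. The estimates run from -0.04 at *rad3* to 1.07 at *mdb1*, and the diamonds lie to the left of the points.

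Across all loci, the median difference varied with the level of the gene. When the 5774 loci were split into quintiles by mean abundance, the second-lowest quintile, with a median of 252 normalized counts, had a median log2 fold change of 0.40, and 39.2% of its loci were called higher. It holds *hus1*, *rad9*, *rad1*, *rad17*, *rad26* and *mdb1*. The lowest quintile, which holds *slx4*, had a median of 0.21, and the middle quintile, which holds *crb2* and *brc1*, 0.14. The quintile of *rad3* had a median of -0.09, and the top quintile, which holds none of the 10, -0.22. With a smooth trend over abundance taken out of every library, the log2 fold changes were 0.78 for *slx4*, 0.74 for *hus1*, 0.73 for *mdb1*, 0.45 for *rad9*, 0.33 for *rad17*, 0.17 for *rad1* and 0.15 for *rad26*. *crb2*, *rad3* and *brc1* had 0.01, -0.05 and -0.19 on that scale. None of the 10 passed the adjusted threshold then. Of the 5774 loci 0 were called higher and 1 lower. At an unadjusted p, 5 of the 10 and 15.3% of all loci were higher.

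**Figure D3:**
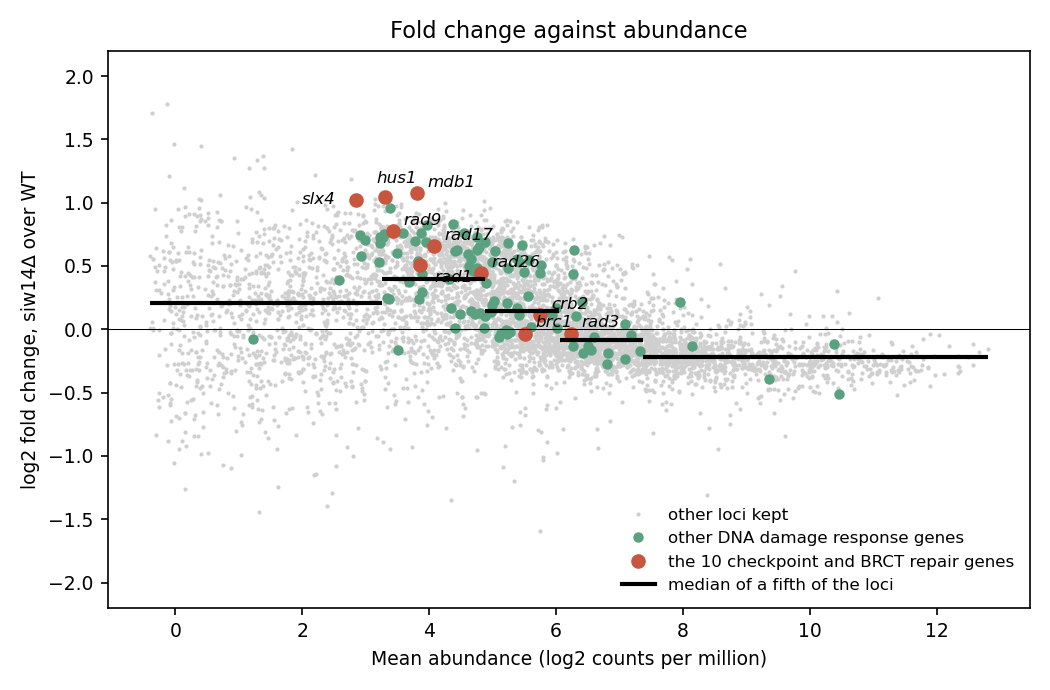
Log2 fold change of *siw14*∆ over WT against mean abundance (log2 CPM) for the loci kept (*siw14* itself lies below the axis), with the 10 genes in red, other DNA damage response genes in green and the median of each quintile as a bar. The medians go from 0.40 in the second-lowest quintile to -0.22 in the top quintile, and 6 of the 10 genes lie in the former.

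The WT libraries differed from each other at these genes in a common direction. WT replicate 1 was the lowest WT library at 8 of the 10 genes and the highest at the other 2, *crb2* and *brc1*, while WT replicate 2 was the highest at 7. The coefficient of variation in WT ran from 2.14% at *rad3* to 32.5% at *slx4*, and in *siw14*∆ from 2.32% at *rad1* to 15.3% at *mdb1*. Without WT replicate 1 the log2 fold changes were 0.89 for *hus1*, 0.68 for *rad9*, 0.43 for *rad1*, 0.53 for *rad17* and 1.00 for *mdb1*, with the same 6 genes called, where 13.5% of all loci were called higher. Without WT replicate 2 *rad26* was called as well (20.6% of all loci), and without WT replicate 3 *rad1* was not (11.0% of all loci). What WT replicate 1 has to do with the differences was not tested further.

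All 10 mRNAs were below the median level of protein-coding loci in WT. Levels of different genes were compared as RPKM, counts per kilobase of exon (ASM294v3 annotation) per 1000000 counts in genes. In WT *crb2* was highest at 18.6 ± 1.54 RPKM (SD, n = 3), at percentile 37.1 of 4890 protein-coding loci, whose median was 30.0 RPKM. *brc1* followed at 16.7 ± 0.628, and its libraries overlapped those of *crb2*. After a gap without overlap came *rad26* (8.76 ± 2.64), *rad3* (7.56 ± 0.631), *rad1* (7.15 ± 1.36), *rad17* (4.96 ± 1.29), *rad9* (4.56 ± 0.996), *hus1* (4.03 ± 1.31) and *mdb1* (3.50 ± 0.770), in which each neighbour overlapped the next. *slx4* was lowest at 1.98 ± 0.745 RPKM, percentile 2.90, below every library of *mdb1*. In *siw14*∆ *crb2*, *brc1*, *rad26* and *rad1* did not overlap, at 22.8 ± 1.62, 18.6 ± 2.30, 13.3 ± 0.950 and 11.4 ± 0.656 RPKM. *hus1*, *rad17*, *rad9*, *rad3* and *mdb1* then lay between 8.28 and 9.28 RPKM, each overlapping the next, and *slx4* was again lowest at 4.49 ± 0.607. In WT *rad3* had been above each of the other 4 genes of that last group in every library.

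**Figure D4:**
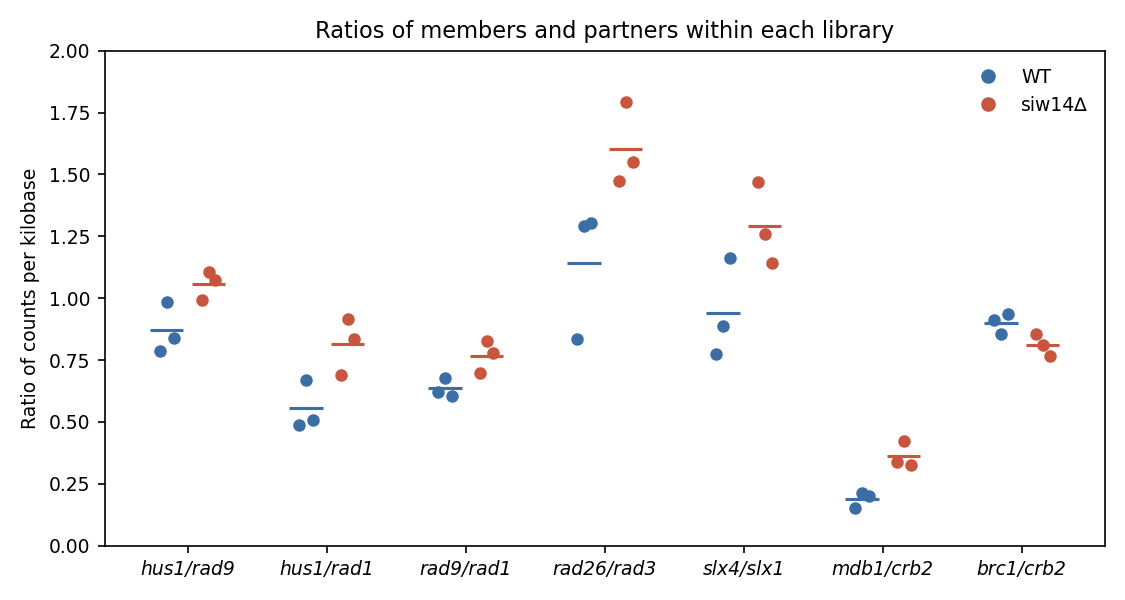
Ratio of exon-length-scaled counts within each library for pairs of genes whose products work together or share BRCT domains, with a point for each library and WT and *siw14*∆ side by side. Of the pairs drawn, the genotypes do not overlap at 6 and overlap at *slx4*/*slx1*. The pair *rad17*/*rfc2*, at which they also overlap, is not drawn. How often ratios of other pairs do not overlap was not counted.

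The 10 genes share little else in the annotation. In ASM294v3, 7 lie on chromosome I and 3 (*rad3*, *crb2* and *brc1*) on chromosome II. The genotypes overlapped at these 3, which are also the only ones of the 10 above the second-lowest abundance quintile. Whether chromosome or abundance has a part in this was not tested. Exon lengths of the 10 genes run from 1493 bases at *hus1* to 9446 at *rad3*, with 1 exon at *rad3* and *crb2* and up to 5 at *hus1*. The GC content of their exons was 34.3% to 37.1% with a median of 36.0%, where the median of the 5755 loci kept with a value was 37.1%.

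Many genes of this compact genome overlap a neighbour, and the sources used here do not give how strand was used in counting. In ASM294v3, 22 overlaps with the 10 genes are annotated, 11 of them with a locus of the count table, and 9 of those loci were kept, 8 on the opposite strand. Of the 9, 4 rose, where 16.7% of all loci kept were higher. *rlp7*, a ribosome biogenesis factor that overlaps *rad9* by 2 bases, rose by 0.73 (log2, adjusted p = 0.0244, edgeR). SPACUNK4.13c, an NTPase gene that overlaps *mdb1* by 189 bases, rose by 0.71 (adjusted p = 0.0265). *rtt109*, a histone acetyltransferase gene with 92 bases under *crb2*, rose by 0.80 (SE 0.19, adjusted p = 0.0258), more than *crb2*. *swi1*, a subunit of the fork protection complex that lies opposite 66.3% of *rad3*, rose by 0.50 (SE 0.14, adjusted p = 0.0349) from 278 ± 42.7 to 394 ± 17.6 normalized counts, where *rad3* had -0.04.

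The other 5 did not pass the test. SPNCRNA.1027, a noncoding RNA opposite 65.8% of *hus1*, had a mean of 106 ± 19.7 in WT and 151 ± 10.6 in *siw14*∆ (log2 fold change 0.51, adjusted p = 0.0663, edgeR). SPAC1952.08c, an oxidase gene whose span covers all of *rad1* on the other strand, had 542 ± 88.7 and 687.6 ± 22.3 (0.34, adjusted p = 0.0785). SPNCRNA.887, opposite 93.0% of *slx4*, had raw counts of 125, 107 and 211 in WT and 142, 114 and 101 in *siw14*∆, with a log2 fold change of -0.47 (SE 0.25, adjusted p = 0.174) where *slx4* had 1.02. *gst3*, which shares 17 bases with *slx4* on the same strand, had -0.37 (adjusted p = 0.0680), and *atd1*, which shares 90 bases with *rad26*, had -0.11 (adjusted p = 0.754). Over the whole table, 355 protein-coding loci lie wholly under 1 locus of the other strand. They had a median of 385 counts per library, and 15 of them (4.23%) had under 10 counts in all 6 libraries together.

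Of 97 other genes of the DNA damage response, taken from 7 lists by function, 96 were kept, and 38 of these (39.6%) rose, 2 fell and 56 did not pass the test, where 16.7% of all loci kept and 19.2% of the protein-coding loci kept were higher. The share called higher was 39.2% in the second-lowest abundance quintile of all loci (median 252 normalized counts) and 27.9% in the middle quintile (median 609). Over the 96 genes the median log2 fold change was 0.28, against 0.01 over all loci. Their median level was 418 normalized counts, against 609 over all loci. With the trend over abundance taken out, 0 of the 96 were called (33 higher at an unadjusted p, where 15.3% of all loci were), and without *siw14*∆ replicate 1, 2 or 3 the number called higher was 18, 0 and 0. Over all loci 6.50% were called higher without *siw14*∆ replicate 1. In the fits without replicate 2 or 3, and with the trend taken out, 0 of all loci were called higher. Among 18 checkpoint partners 6 rose and 2 fell, with a median of 0.22. *mrc1*, the replication mediator of the checkpoint, rose from 398 to 639.6 normalized counts (log2 0.68, SE 0.15, adjusted p = 0.0235, edgeR), and its effector kinase *cds1* rose by 0.63 (adjusted p = 0.0308). *swi3*, the partner of Swi1, rose by 0.73 (adjusted p = 0.0244), and *rad4*, the BRCT protein that joins the clamp to Crb2, by 0.48 (adjusted p = 0.0355). *chk1*, the kinase downstream of Crb2, had 516, 476 and 455 in WT and 505, 382 and 499 in *siw14*∆ (-0.06, adjusted p = 0.751). The 2 that fell were the 14-3-3 genes *rad24*, by 0.51 on the log2 scale (adjusted p = 0.0351), and *rad25*, by 0.39 (adjusted p = 0.0453), whose products bind phosphorylated Chk1 and Cdc25. Of all loci kept 4.99% were called lower. The log2 fold changes of *rad24* and *rad25* were -0.25 and -0.16 with the trend over abundance taken out.

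The counts by list stand beside 16.7% of all loci called higher, and 39.2% and 27.9% in the second-lowest and middle abundance quintiles. The lists share some genes, so their counts do not add up to that of the 96. Of 24 recombination genes 11 rose and 0 fell at the adjusted threshold of edgeR, with a median of 0.45. They included *ssb1*, the large subunit of the single-strand binding protein RPA (0.63, SE 0.12, adjusted p = 0.0235), *sfr1*, a cofactor of strand exchange (0.96, SE 0.21), and *mre11* (0.69, SE 0.14). Of 14 structure-specific nuclease and fork remodelling genes 5 rose, among them *rad13*, the counterpart of human XPG (0.84, SE 0.15), with a median of 0.45. Of the 7 other BRCT genes kept 6 rose, with a median of 0.49. These were *rad4*, *fcp1*, a phosphatase of RNA polymerase II (0.49, adjusted p = 0.0243, edgeR), *rev1* (0.73), *lig4* (0.70), *rfc1* (0.46) and, named only to complete the count, *nbs1* (0.68). Of 23 postreplication repair and SMC5/6 genes 10 rose, among them the translesion polymerase gene *kpa1* (0.82, adjusted p = 0.0235). Of 4 end joining genes kept 2 rose, *lig4* and *pku80* (0.62), while *pku70* (0.15) and *xlf1* (-0.08) did not pass the test. Of 11 targets of the G1/S factor MBF, several of which DNA damage induces, 3 rose (*yox1*, *cdt1* and *ctp1*) and 8 did not pass the test, with a median of 0.11.

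The genes most like *hus1* across the libraries were found by Pearson's r of log2 CPM over the 6 libraries, which share a genotype in sets of 3. For *hus1* they were *hsk1* (r = 0.999), *arp5* (r = 0.999) and *sap145* (r = 0.998). For *mdb1* they were *rpm2* (0.998), *frg1* (0.993) and *dom34* (0.993), and for *slx4* they were *fft1* (0.999), *dph4* (0.999) and *cdc27* (0.997). Within the 10 genes *hus1* was closest to *rad9* (r = 0.996) and farthest from *brc1* (r = -0.36) and *rad3* (r = -0.30).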

How the data were processed

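Poly(A)+ RNA-seq libraries of 3 WT and 3 *siw14*∆ cultures were analysed. The authors mapped paired-end reads to build ASM294v2 with HISAT2 2.1.0, used SAMtools for file conversion and HTSeq 0.10.0 for gene-wise counting. The sources used here do not give its strand setting. The deposited table holds raw counts of 6988 loci in each library. A further 5 lines that name no gene were filled only in the *siw14*∆ columns, with 35.8%, 31.6% and 34.7% of the counts, and were left out. The deposited DESeq2 table (fold changes, errors, p-values and strain means) was not used.

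Low loci were removed with filterByExpr, and TMM, glmQLFit and glmQLFTest of edgeR 4.0.16 (R 4.3.3) gave log2 fold changes and p-values, adjusted by Benjamini-Hochberg over 5774 loci. The SE is the fold change over the root of F, and the 95% interval uses the total degrees of freedom. Normalized counts are counts divided by effective library size and multiplied by the geometric mean of these sizes. The main edgeR fit was also run on simulated counts with known changes. The alternative fits and the list, overlap, ratio and correlation steps were not.

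The 10 genes, the lists and the tests were chosen with earlier results of these data known. Genes named were *siw14*, the 10, mating type markers, kept loci overlapping the 10, at most 4 genes per list by smallest p, partners in complexes, and for *hus1*, *mdb1* and *slx4* the 3 most correlated coding genes. Of the list genes *pol4* was not kept. *map3* and *mam2* had been entered under the wrong mating type and were exchanged. Lengths, overlaps and GC content came from ASM294v3, in which 6817 of the 6988 identifiers matched. No coordinate is given, because the counts were made on ASM294v2.

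Alternatives were DESeq2 1.42.0, limma-voom (limma 3.58.1), DESeq2 size factors, library totals, a filter at 1 count in 1 library or at 10 counts in all 6, a replicate block, a loess trend (span 0.3) over abundance or GC content taken out, and each library left out. A pairing of replicates by number was checked by the correlation of same-numbered deviations from the group means. It was -0.26, 0.18 and -0.16 for numbers 1, 2 and 3. Libraries with different numbers were not compared, so whether equal numbers pair the samples cannot be told from these values. Counting error and the spread over 3 cultures limit precision most at *slx4*.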

Additional observations from a re-analysis of the deposited data

How the results depend on the processing

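Of the 10 genes, the same 6 were called higher by DESeq2, by limma-voom, with DESeq2 size factors or library totals, with either other filter, with the GC trend taken out and with a replicate block. Over all loci DESeq2 called 1025 of 5495 higher and limma-voom 993 of 5774. DESeq2 size factors gave 903, library totals 1368 and the GC trend taken out 838, each of 5774. The filter at 1 count gave 985 of 6500, and the filter at 10 counts 989 of 5559. The block gave 6 calls of the 10 and 1007 higher and 156 lower calls over all loci. Whether libraries of equal number share anything beyond the number is not known. With the trend over abundance taken out, 0 of the 10, 0 of the 96 other response genes in either direction and 0 of the 9 overlapping loci were called. Over all loci that fit called 0 higher and 1 lower. Leaving out 1 library gave 0 to 7 calls of the 10, 0 to 43 higher and 0 to 2 lower among the 96, and 0 to 6 higher and 0 to 2 lower among the 9. Over all loci these fits called 0 to 1204 higher and 1 to 717 lower. The study criteria left 3 of the 10 with edgeR values and 2 with DESeq2 values, the latter an alternative chosen after seeing the data. Over all loci they left 6 and 4 upward. Of the 96, the number called lower (2) was 1 with library totals, 0 with the replicate block and 6 with the GC trend taken out, and of the overlapping loci the number called lower (0) was 1 by DESeq2, 1 with the replicate block and 2 with the GC trend taken out. Over all loci the number called lower was 288 in the main fit and 31 with library totals. It was 156 with the replicate block, 937 with the GC trend taken out and 705 by DESeq2. The log2 fold change ran from 0.89 to 1.27 for *hus1*, 0.68 to 0.89 for *rad9*, 0.43 to 0.59 for *rad1*, 0.53 to 0.84 for *rad17*, 0.27 to 0.57 for *rad26*, 0.95 to 1.22 for *mdb1* and 0.80 to 1.19 for *slx4* when each library was left out in turn. Signs changed at the 3 genes near 0. *rad3* had 0.14 with library totals, and -0.12 to 0.02 with each library left out (0.023 without *siw14*∆ replicate 2). *brc1* had 0.15 with library totals, and -0.11 to 0.05 with each library left out (0.051 without WT replicate 1 and 0.027 without *siw14*∆ replicate 3). *crb2* had -0.029 with the GC trend taken out, and 0.07 to 0.19 with each library left out. The cause of these changes was not tested. An adjusted p that DESeq2 gave as missing (1493 loci, none of the 10) was kept as missing.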
